A study of Homo sapiens with 24 samples.

Results

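Transcripts that carry small nucleolar RNAs (snoRNAs) or microRNAs inside them were followed through the soluble and insoluble cytoplasm of U2OS cells. They were chosen by name alone, as the rows whose symbol is SNHG followed by a number, MIR followed by letters or digits and ending in HG, or GAS5. The rule found 96 of the 60308 genes of the exon count table, 29 of them snoRNA hosts (the SNHG genes and GAS5) and 67 microRNA hosts. In the intron count table it found 86 of 37473 genes, 24 snoRNA hosts and 62 microRNA hosts.

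U2OS is an established human osteosarcoma cell line that forms stress granules readily. Its cytoplasm was split by centrifugation into a soluble supernatant and an insoluble pellet that holds ribonucleoprotein granules, after most nuclei had been spun out, and RNA of both was sequenced after removal of ribosomal RNA. The study asked how NaAsO2 (sodium arsenite, which causes oxidative stress, stops translation and induces stress granules) and RK-33 (an inhibitor of the RNA helicase DDX3) change the RNA of each fraction. Control cells were given the solvent DMSO at 0.12% over 2 h (Ctrl). Stressed cells were exposed to NaAsO2 at 500 µM during 60 min (NaAsO2). Inhibited cells were given RK-33 at 6 µM, listed as a 1 h pretreatment (RK-33). Cells given both had RK-33 at the same dose 1 h ahead of the same NaAsO2 exposure (Combo). The study matched the DMSO time to that of RK-33 and names no solvent for cells given NaAsO2 alone. Each of the treatments had 3 lysates, and each lysate gave 1 soluble and 1 insoluble library, so that 24 libraries fell into 8 groups of 3. The insoluble fraction is a pellet and not purified granules, and by the study's methods the fractionation and sequencing were done 3 times per treatment, so p-values measure the spread between these repeats of 1 cell line.

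SnoRNAs guide chemical modification of ribosomal RNA, and in humans most are cut out of the introns of host genes after splicing. The spliced exons of SNHG hosts and GAS5 usually hold no long open reading frame, reach ribosomes all the same and are commonly removed by nonsense-mediated decay, so that their levels rise when translation is blocked; several begin with a terminal oligopyrimidine (TOP) tract, a C followed by a run of C and T that couples translation to growth signals. MicroRNA hosts are long primary transcripts from which DROSHA and DGCR8 cut hairpins in the nucleus, and the remainder may be spliced and exported or degraded.

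The sequences of greatest use here are the small RNAs of the hosts that the comparisons turn on, since the library measures the host and not the mature product. Of the 108 microRNA rows inside members, 103 matched a RefSeq entry by symbol. MIR17HG on chromosome 13 carries 6 microRNAs, and its leading arms fall into seed groups, here with bases 2 to 8 (the seed) in capitals, 5′ to 3′, from RefSeq on GRCh38.p14.
hsa-miR-17-5p: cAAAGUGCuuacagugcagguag
hsa-miR-20a-5p: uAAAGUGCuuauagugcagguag
hsa-miR-18a-5p: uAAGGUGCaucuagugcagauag
hsa-miR-19a-3p: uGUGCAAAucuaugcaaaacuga
hsa-miR-19b-3p: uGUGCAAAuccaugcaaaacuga
hsa-miR-92a-3p: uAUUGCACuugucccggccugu
The arms miR-17-5p (chr13:91350618-91350640, plus strand) and miR-20a-5p share the seed AAAGUGC, and miR-19a-3p and miR-19b-3p share GUGCAAA. MIR222HG on the X chromosome, MIR22HG on chromosome 17 and MIR181A1HG on chromosome 1, all on the minus strand, carry the following arms.
hsa-miR-221-3p: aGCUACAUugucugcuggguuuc
hsa-miR-222-3p: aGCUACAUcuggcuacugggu
hsa-miR-22-3p: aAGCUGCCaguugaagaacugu
hsa-miR-181a-5p: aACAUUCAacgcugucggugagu
hsa-miR-181b-5p: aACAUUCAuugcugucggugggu
The miR-221 and miR-222 arms share the seed GCUACAU (chrX:45746180-45746202 and chrX:45747036-45747056), and the 4 arms with seed ACAUUCA came from 2 hosts, MIR181A1HG and MIR181A2HG. Among the microRNAs of the hosts that were tested below, the let-7 seed GAGGUAG was the most shared, with 10 entries from 7 hosts. They include let-7a of MIRLET7A1HG on chromosome 9 (plus strand).
hsa-let-7a-5p: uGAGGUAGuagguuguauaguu

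The first 50 bases of the RefSeq transcript show where a TOP-like tract is and is not found. The letters searched for were a C followed by at least 4 C or T in a row, on the transcript's strand, with the C among the first 10 bases, and the run is in capitals. These snoRNA hosts hold one.
SNHG12: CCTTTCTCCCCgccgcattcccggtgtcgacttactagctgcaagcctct
SNHG4: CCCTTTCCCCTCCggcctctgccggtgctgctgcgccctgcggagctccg
SNHG5: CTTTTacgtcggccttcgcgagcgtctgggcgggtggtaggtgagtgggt
SNHG19: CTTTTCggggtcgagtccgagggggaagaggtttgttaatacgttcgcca
SNHG16: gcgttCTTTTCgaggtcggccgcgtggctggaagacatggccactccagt
These snoRNA hosts do not at the RefSeq start.
SNHG3: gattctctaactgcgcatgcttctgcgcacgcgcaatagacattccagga
SNHG29: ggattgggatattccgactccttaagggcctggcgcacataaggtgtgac
GAS5: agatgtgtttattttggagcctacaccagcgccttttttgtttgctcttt
SNHG1: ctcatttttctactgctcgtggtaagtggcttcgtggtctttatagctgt
SNHG12 starts at chr1:28581824-28581873 (minus strand), SNHG4 at chr5:139274101-139274150 (plus), SNHG5 at chr6:85678684-85678733 (minus), SNHG19 at chr16:2155309-2155358 (minus), SNHG16 at chr17:76557764-76557813 (plus), SNHG3 at chr1:28505943-28505992 (plus), SNHG29 at chr17:16438987-16439036 (plus), GAS5 at chr1:173868996-173869045 (minus) and SNHG1 at chr11:62855836-62855885 (minus), all on GRCh38.p14. Such a run was present at 10 of 25 snoRNA host starts (40%), 14 of 51 microRNA host starts (27.5%) and 5265 of all 27305 starts in the table (19.3%), with 76 members matched. RefSeq starts can lie away from the main cap site, so an absent run says only that these letters are not in this window.

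Exon counts came to between 8627294 and 15376554 per library and intron counts to between 1621536 and 6092652. Levels are given as CPM, counts scaled to a common library size, with TMM factors from edgeR, which corrects for a few very abundant RNAs. They are relative to the other genes of a library and are not amounts per cell. The spike-in RNA that the study added to its libraries was not used here. The mesenchymal genes COL1A1 (766 to 7843 CPM), VIM (258 to 1184) and CDH2 (76.8 to 234) were high in all libraries, while EPCAM (0.692 to 7.27), CDH1 (3.79 to 6.55) and PTPRC (0.325 to 2.08) were low and KRT8 was present at 138 to 398 CPM. One library stood apart: NaAsO2 insoluble replicate 3 had 5.79% of its exon counts from RN7SL1, against 0.426% to 1.23% in the other insoluble libraries and 7.51% to 15.5% in the soluble ones, and 7843 CPM of COL1A1 against 1166 and 1439 in its group, so results that rest on it are given without it too. Of the nuclear RNA markers, RN7SK and RPPH1 were at 0 in all libraries, which does not show that nuclear RNA was absent. MALAT1 (1315 to 15020 CPM), NEAT1 (286 to 3368) and RMRP (2211 to 6823) were present in every library. In Ctrl, MALAT1 was higher in the soluble libraries (10680 to 15020 CPM) than in the insoluble ones (5228 to 6857), and NEAT1 was lower (393 to 560 against 1558 to 1915). MALAT1 was lower in the NaAsO2 insoluble libraries (1315 to 2447 CPM) than in the Ctrl insoluble ones. The part of nuclear RNA in the results below was not tested. In bulk libraries, less of a transcript per cell and fewer cells contributing it cannot be told apart.

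By exon counts, 55 members (25 snoRNA hosts and 30 microRNA hosts) reached a mean of 1 CPM over the 24 libraries and were tested, 41 did not, and 2 of these had no count in any library. The members held 0.0668% to 0.193% of exon counts, and 37 (21 snoRNA and 16 microRNA hosts) had a mean of at least 5 CPM; members under 5 CPM that are named below were chosen after their values were seen. Per kilobase of exon, SNHG3 was highest, at 39.96 CPM per kb, followed by SNHG19 (20.8), SNHG16 (19.8), SNHG1 (18.8) and GAS5 (14.1). The highest microRNA hosts on that scale were MIR222HG at 9.79 and MIR22HG at 9.30 CPM per kb. SNHG14, the host of the imprinted SNORD115 and SNORD116 arrays, had 117 CPM but had only 0.958 CPM per kb. Counting ignored strand and left out fragments that touched more than 1 gene, so antisense partners cannot be told apart from the hosts they overlap, and 62.4% of SNHG6 exon bases, 32.9% of those of SNHG16 and 11% of those of SNHG3 were shared with another annotated gene.

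Relative to the other genes of a library, snoRNA hosts were mostly higher in the soluble fraction. SNHG3, the host of the SNORA73 snoRNAs (chr1:28505980-28510892, plus strand), was at 389, 338 and 353 CPM in the Ctrl soluble libraries and at 141, 116 and 107 CPM in the Ctrl insoluble ones. In NaAsO2 it was at 191, 179 and 176 CPM soluble and 36.6, 27 and 28.3 CPM insoluble. No library of one fraction reached a library of the other in either treatment. The log2 difference, insoluble minus soluble, was −1.57 ± 0.128 (SE) in Ctrl, −2.57 ± 0.135 in NaAsO2, −1.86 ± 0.130 in RK-33 and −2.23 ± 0.132 in Combo, and SNHG3 had the smallest adjusted p of all members in each (2.63e-09, 1.22e-12, 1.87e-10 and 2.99e-11, edgeR's quasi-likelihood test with Benjamini-Hochberg adjustment over 17666 genes).

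SNHG6, the host of SNORD87, was at 21.1, 22.1 and 25.1 CPM in Ctrl soluble libraries and 9.96, 9.58 and 7.63 CPM in insoluble ones, and at 31.2, 27.6 and 28.7 against 6.83, 5.55 and 3.79 CPM after NaAsO2. SNHG19, the host of SNORD60, was at 19, 17.9 and 18.4 against 8.66, 8.57 and 7.05 CPM in Ctrl, and at 17.5, 17.1 and 13.4 against 3.56, 4.42 and 3.20 CPM in NaAsO2. Both were lower in every insoluble library than in any soluble library of the same treatment, with log2 differences in Ctrl, NaAsO2, RK-33 and Combo of −1.33, −2.41, −1.55 and −1.80 for SNHG6 and −1.19, −2.08, −1.80 and −1.86 for SNHG19. SNHG29, the host of SNORD49A, SNORD49B and SNORD65, was at 100, 124 and 103 CPM in Ctrl soluble and 46.2, 44.5 and 41.2 CPM in Ctrl insoluble libraries. Its log2 difference was −1.31 ± 0.124 in Ctrl and −1.75 ± 0.125 in NaAsO2 (adjusted p = 2.11e-08 and 7.95e-11 by the same edgeR test). SNHG16, which carries the SNORD1 snoRNAs, was at 135, 155 and 135 against 62.8, 64.8 and 70.3 CPM in Ctrl, a difference of −1.10 ± 0.116 that passed in Ctrl and NaAsO2 and lay just short of the fold limit in RK-33 (−0.98) and Combo (−0.95).

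A gene was called when its adjusted p was under 0.05 and its log2 difference at least 1 in size. Of the 25 snoRNA hosts tested, 12 were called lower in the insoluble fraction and 1 higher in Ctrl, 14 and 0 in NaAsO2, 11 and 1 in RK-33, and 14 and 0 in Combo, with median log2 differences of −0.95, −1.22, −0.94 and −1.05. Of all genes, 10.7% were called lower and 11.8% higher in Ctrl, 16% and 14.6% in NaAsO2, 15.2% and 15.5% in RK-33, and 13.1% and 10% in Combo, with medians between −0.03 and 0.03. The snoRNA host on the insoluble side was SNHG5, the host of the SNORD50 snoRNAs, at 6.14, 6.44 and 6.21 CPM soluble against 14.8, 15.6 and 11.1 CPM insoluble in Ctrl (log2 difference 1.14 ± 0.279, adjusted p = 0.00175, edgeR) and 1.203 ± 0.283 in RK-33. In NaAsO2 (0.03) and Combo (−0.0028) its fractions did not differ beyond the spread. SNHG14 had 89.99 to 102.5 CPM in Ctrl soluble and 139 to 166 CPM in Ctrl insoluble libraries, with log2 differences of 0.66, 0.76, 0.97 and 0.62 in Ctrl, NaAsO2, RK-33 and Combo, all with adjusted p under 0.05 and all under the fold limit.

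**Figure D1:**
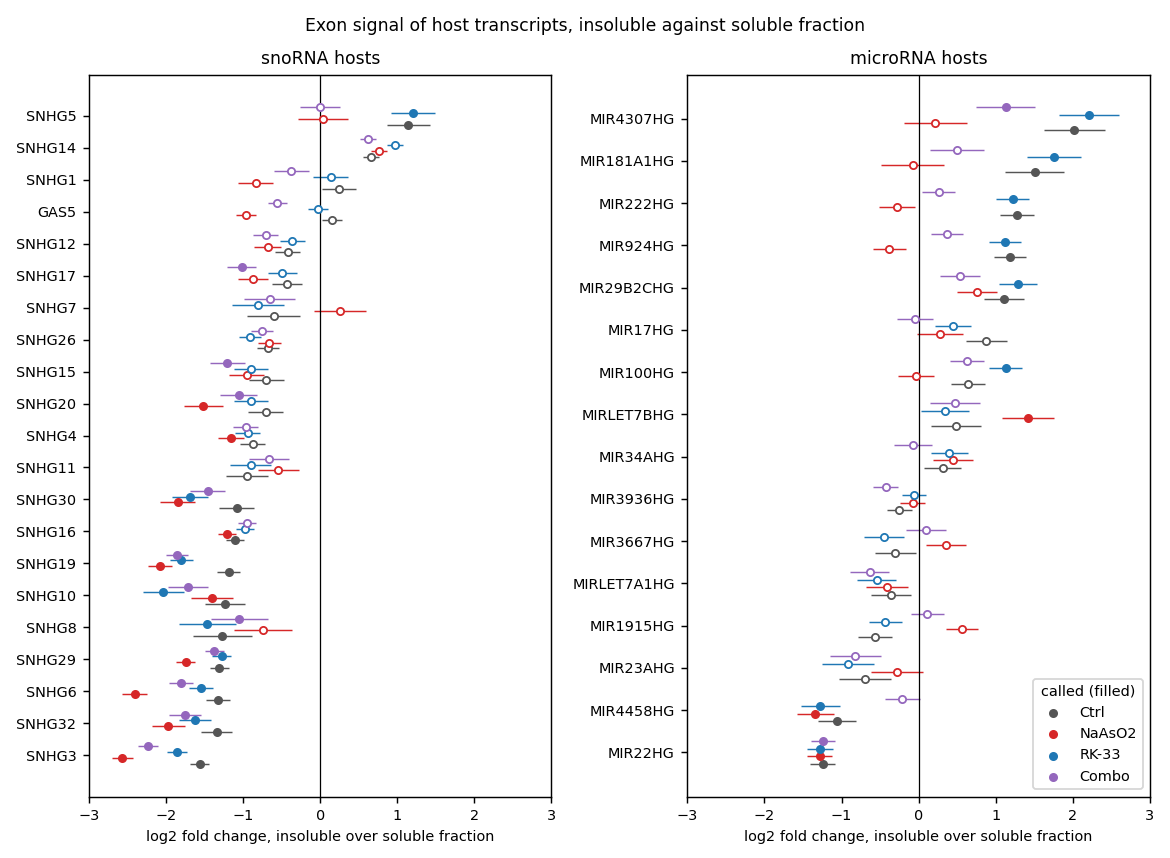
Log2 difference of exon counts, insoluble minus soluble, for the 37 members with a mean of at least 5 CPM, by treatment, with snoRNA hosts and microRNA hosts in separate panels; bars are standard errors and filled points passed adjusted p under 0.05 with a log2 difference of at least 1 in size. SNHG3, SNHG6, SNHG19 and SNHG29 lie far below 0 in each treatment, and MIR222HG, MIR924HG and MIR4307HG lie above 0 in Ctrl and RK-33.

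MicroRNA hosts were spread over both sides. Of the 30 tested, 7 were called higher in the insoluble fraction and 4 lower in Ctrl, 3 and 5 in NaAsO2, 11 and 3 in RK-33, and 3 and 4 in Combo, with medians of 0.56, −0.03, 0.54 and 0.14. All genes also lay on both sides, with 11.8% called higher and 10.7% lower in Ctrl and 14.6% and 16% in NaAsO2. In RK-33 their shares were 15.5% and 15.2%, and in Combo 10% and 13.1%. MIR222HG, which carries miR-221 and miR-222, was at 20.02, 14.5 and 18.6 CPM in Ctrl soluble and 47.2, 39.3 and 42 CPM in Ctrl insoluble libraries, a difference of 1.27 ± 0.222 (adjusted p = 6.27e-05, edgeR). MIR924HG was at 12.5, 12.2 and 9.85 against 27.7, 27 and 24.1 CPM, a difference of 1.19 ± 0.208 (adjusted p = 6.68e-05). MIR4307HG was at 5.31, 3.59 and 6.32 against 24.1, 19.9 and 17.6 CPM, a difference of 2.02 ± 0.396. In each of these hosts the fractions did not overlap in Ctrl, whereas in NaAsO2 they did: MIR222HG was at 11.5, 14.3 and 13.3 CPM soluble and 14.3, 10.4 and 7.23 CPM insoluble. MIR924HG was then at 13.2, 14.9 and 12.6 CPM soluble and 12.7, 10.2 and 8.06 CPM insoluble.

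After RK-33 the same 3 hosts were again higher in the insoluble fraction, by 1.22, 1.13 and 2.21, although the call of MIR924HG was lost without the filter on low counts (0.99). MIR181A1HG, the host of miR-181a and miR-181b, was at 7.92, 5.52 and 5.21 against 22.9, 18.7 and 21.6 CPM after RK-33, a difference of 1.76 ± 0.352, and differed by 1.51 ± 0.381 in Ctrl. MIR29B2CHG, the host of miR-29b and miR-29c, differed by 1.11 ± 0.259 in Ctrl and 1.29 ± 0.245 in RK-33, and the Ctrl call was lost without Ctrl soluble replicate 2 (0.91). MIR100HG, the host of miR-100, let-7a-2 and miR-125b-1, was called higher in RK-33 (1.13 ± 0.217) and lost the call without the filter on low counts or without RK-33 soluble replicate 3 (lowest value 0.95). The microRNA host furthest to the insoluble side in NaAsO2 and Combo was MIR600HG, a low transcript at 2.51, 0.828 and 1.82 CPM in Ctrl soluble and 5.09, 3.83 and 5.70 CPM in Ctrl insoluble libraries. It differed by 1.5, 2.64, 2.15 and 2.31 in Ctrl, NaAsO2, RK-33 and Combo and was called in each. In NaAsO2 the other hosts called higher were MIRLET7BHG, with 44 CPM in the library that stood apart against 14.9 and 11.8 in the other NaAsO2 insoluble ones (1.42, and 0.66 with the call lost without it), and MIR4500HG, whose call was lost in 9 of 14 alternatives. In Combo they were MIR4307HG (1.13 ± 0.380), lost in 4 of 14 alternatives, and MIR4500HG, lost in 6 of 14 alternatives.

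MIR22HG, the host of miR-22, had the smallest adjusted p of the microRNA hosts on the soluble side in each treatment. It was at 38.7, 28.3 and 35.2 CPM in Ctrl soluble and 17.9, 14.2 and 11.2 CPM in Ctrl insoluble libraries. Its log2 differences of −1.24, −1.28, −1.28 and −1.24 in Ctrl, NaAsO2, RK-33 and Combo were called in each treatment (adjusted p from 6.15e-07 to 1.99e-06, edgeR). MIR17HG was at 4.66, 3.13 and 4.82 CPM soluble and 6.82, 9.17 and 7.15 CPM insoluble in Ctrl, with a difference of 0.88 ± 0.265 (adjusted p = 0.00845) that was under the fold limit.

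**Figure D2:**
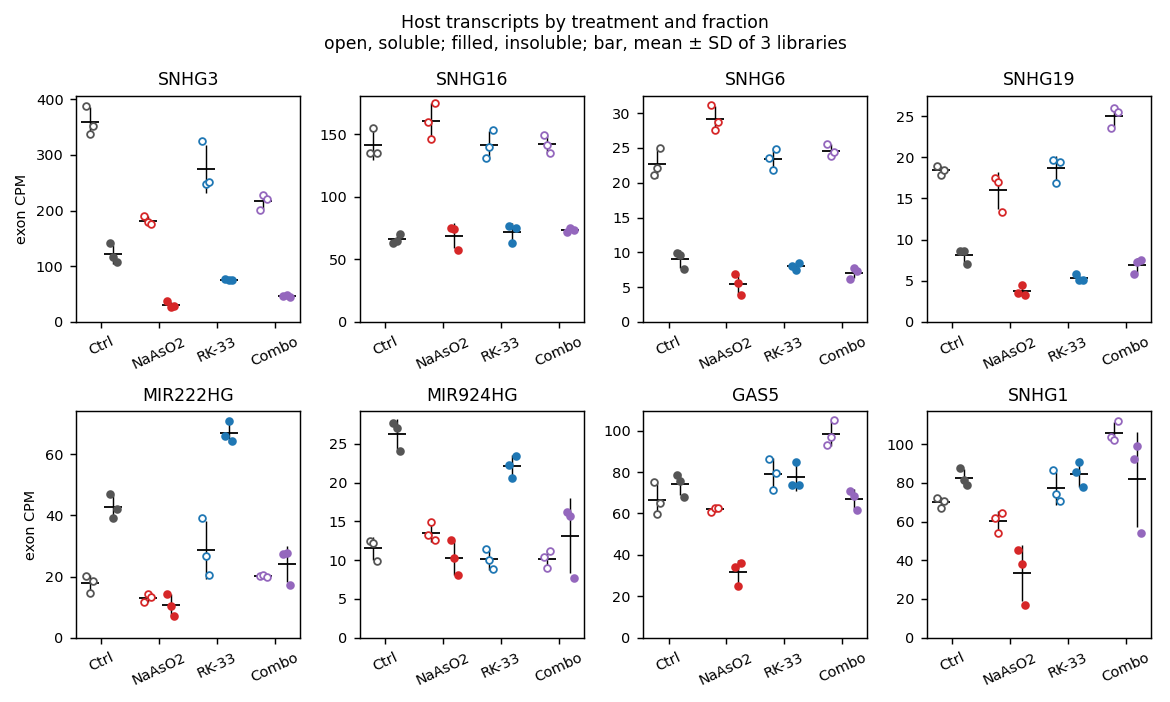
Exon CPM in every library of 8 hosts, by treatment, with open points for soluble and filled points for insoluble libraries and bars for the mean ± SD of 3 libraries. SNHG3, SNHG16, SNHG6 and SNHG19 are lower in the insoluble fraction in all treatments, while the fractions of GAS5 and SNHG1 lie furthest apart in NaAsO2.

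GAS5 and SNHG1, both textbook snoRNA hosts, lay close together in the fractions of Ctrl cells. GAS5 (chr1:173858559-173868882, minus strand), best known for rising when growth stops, was at 75.4, 59.7 and 65 CPM soluble and 78.5, 75.9 and 68.2 CPM insoluble in Ctrl, and at 60.5, 62.6 and 62.7 against 34.1, 25 and 36.2 CPM in NaAsO2. SNHG1 (chr11:62851978-62855953, minus strand) was at 72.1, 66.9 and 70.9 against 87.9, 81.4 and 78.9 CPM in Ctrl, and at 61.8, 54.2 and 64.5 against 45.3, 37.9 and 17 CPM in NaAsO2. In NaAsO2 every insoluble library of both lay below every soluble one, whereas in Ctrl GAS5 overlapped and SNHG1 was higher in the insoluble libraries. Insoluble minus soluble, GAS5 differed by 0.15, −0.97, −0.03 and −0.55 and SNHG1 by 0.24, −0.84, 0.14 and −0.37 in Ctrl, NaAsO2, RK-33 and Combo, and none of these reached the fold limit.

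Genes that act on these transcripts were read beside them. Of 8 core proteins of snoRNPs, the complexes built on snoRNAs, 4, 7, 5 and 6 were called lower in the insoluble fraction in Ctrl, NaAsO2, RK-33 and Combo and none higher, with medians of −0.998, −1.50, −1.58 and −1.35. The messengers of SNU13 (−1.53 to −1.89), NOP10 (−1.52 to −2.68), NHP2 and GAR1 were called lower in all 4 treatments. Of 10 nonsense-mediated decay factors, 3 were called higher in each treatment and none lower, with SMG1 (1.89 to 2.11) and UPF1 (1.21 to 1.78) called in all 4. Of 10 microRNA processing proteins, 2, 3, 2 and 2 were called higher and 0, 1, 0 and 1 lower, with DICER1, which cuts precursor hairpins, higher in all 4 (1.07 to 1.39). Of 148 other snoRNA hosts tested (genes outside the naming rule with an annotated snoRNA inside), 19, 17, 17 and 14 were called higher and 30, 47, 41 and 41 lower, with medians of −0.04, −0.43, −0.21 and −0.33. Beside these lists, 11.8%, 14.6%, 15.5% and 10% of all genes were called higher and 10.7%, 16%, 15.2% and 13.1% lower. By exon counts, no snoRNP, decay or processing protein of these lists was called between treatments within a fraction. By intron counts, 2 snoRNP core proteins and 1 microRNA processing protein were called lower in NaAsO2 than in Ctrl in the insoluble fraction. There 13.9% of all genes were called in either direction. In the same fraction 1 snoRNP core protein was called higher in Combo than in NaAsO2, where 10.3% of all genes were called in either direction.

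Among the 55 members tested, the fraction difference went with the length of the gene, as a description over genes that share libraries and are not independent. The same value was not computed over all genes, so the trend is not shown to be particular to hosts. It also pools snoRNA and microRNA hosts. In Ctrl, 12 of the 16 members called lower were snoRNA hosts and 7 of the 8 called higher were microRNA hosts. Length and class were not separated. Spearman's rho of the log2 difference with genomic span was 0.58, 0.54, 0.59 and 0.62 in Ctrl, NaAsO2, RK-33 and Combo, and with summed exon length 0.48, 0.64, 0.50 and 0.60 (n = 55). In Ctrl the median span was 61.6 kb for the 8 members called higher, 5.78 kb for the 16 called lower and 29.7 kb for the 31 not called. The log2 change of NaAsO2 against Ctrl in the insoluble fraction gave 0.04 with span and 0.20 with exon length.

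NaAsO2 against Ctrl asks what arsenite did within each fraction. In the soluble fraction 3 of 55 members were called lower and 0 higher, where 1.18% of all genes were lower and 0.492% higher, and the members' median log2 change was −0.19 against 0.03 for all genes. In the insoluble fraction 17 were called lower and 1 higher (all genes 8.37% lower and 5.61% higher), 9 of the lower ones snoRNA hosts and 8 microRNA hosts, with a median of −0.61 for members and −0.02 for all genes. Without NaAsO2 insoluble replicate 3 the insoluble counts were 20 lower and 0 higher. SNHG3 had the smallest adjusted p and fell by 1.99 ± 0.132 on the log2 scale in the insoluble fraction (adjusted p = 6.45e-10, edgeR, as for the values that follow), and its soluble change of −0.98 ± 0.126 was under the fold limit.

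SNHG4, the host of SNORA74A and SNORA74D, was at 89.1, 74.1 and 76.4 CPM in Ctrl soluble and 37.3, 32.5 and 36.5 CPM in NaAsO2 soluble libraries, and at 49.1, 40.2 and 41.3 against 17.8, 12.9 and 17.2 CPM in the insoluble ones. It fell by 1.17 ± 0.162 (adjusted p = 7.08e-05) and 1.45 ± 0.168 (1.20e-06). SNHG26, the host of SNORD93, was at 48.8, 39 and 46.4 CPM in Ctrl soluble and 20.1, 17.4 and 17.4 CPM in NaAsO2 soluble libraries, and at 28.9, 28.2 and 26.8 against 12.5, 11.5 and 10.6 CPM in the insoluble ones. It fell by 1.29 ± 0.145 (6.43e-06) and 1.27 ± 0.149 (1.37e-06), so that both hosts were lower after NaAsO2 in both fractions with no overlap between libraries. SNHG25, the host of SNORD104, was the other member called in the soluble fraction: it was at 3.35, 3.59 and 4.50 CPM in Ctrl and 1.47, 0.698 and 1.01 CPM in NaAsO2, and fell by 1.85 ± 0.323.

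GAS5, at 78.5, 75.9 and 68.2 CPM in Ctrl insoluble and 34.1, 25 and 36.2 CPM in NaAsO2 insoluble libraries, fell by 1.23 ± 0.130 (adjusted p = 3.56e-07), while its soluble change was −0.11. MIR222HG, at 47.2, 39.3 and 42 against 14.3, 10.4 and 7.23 CPM, fell by 1.99 ± 0.228 (1.07e-06), with a soluble change of −0.44 that did not pass. SNHG1 fell by 1.30 ± 0.230 (0.000164) and was at −0.93 without NaAsO2 insoluble replicate 3, which ends the call. SNHG5 (−1.86), MIR924HG (−1.33), MIR100HG (−1.26), MIR4307HG (−1.67) and MIR181A1HG (−1.65) were called lower too. MIR17HG, at 6.82, 9.17 and 7.15 CPM in Ctrl insoluble and 4.91, 2.39 and 2.61 CPM in NaAsO2 insoluble libraries, fell by 1.2 ± 0.267 and lost the call without NaAsO2 insoluble replicate 2 (−0.98). The member called higher, MIR1915HG, was at 15, 15.3 and 12.8 CPM in Ctrl insoluble and 25.1, 24.7 and 51.7 CPM in NaAsO2 insoluble libraries (1.22 ± 0.217), and was at 0.86, not called, without the library that stood apart. SNHG16 (0.18 soluble, 0.07 insoluble) and MIR22HG (−0.11 and −0.15) did not pass in either fraction.

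**Figure D3:**
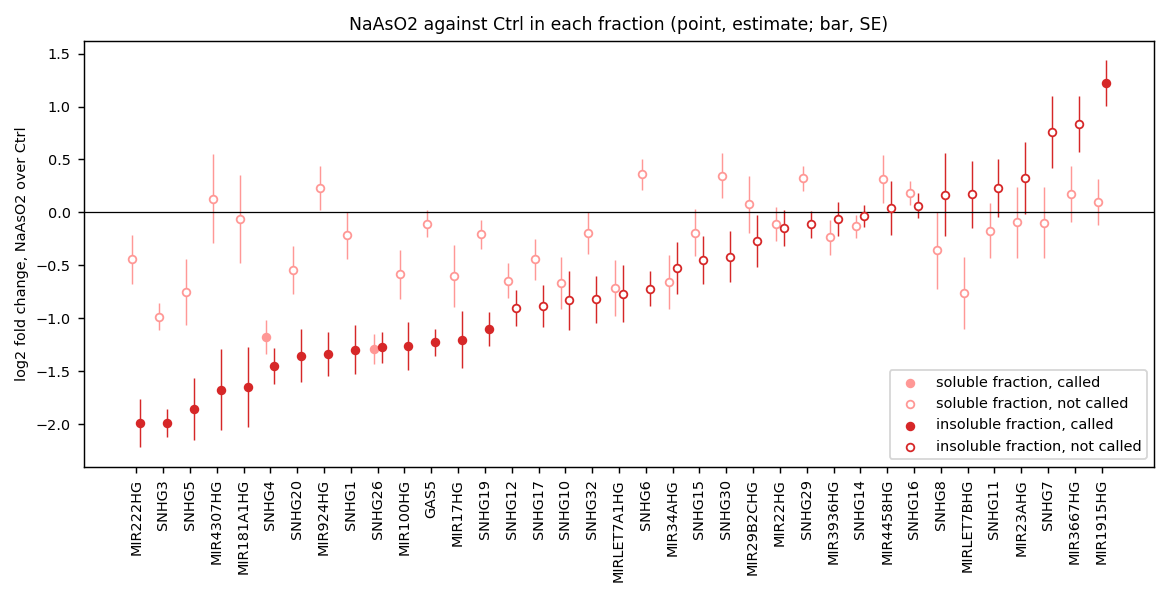
Log2 change of exon counts, NaAsO2 minus Ctrl, in the soluble and the insoluble fraction for the 37 members with a mean of at least 5 CPM, with standard errors. SNHG4 and SNHG26 are below −1 in both fractions, whereas GAS5, SNHG1 and MIR222HG are below −1 in the insoluble fraction only.

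Whether the fraction difference itself changed with NaAsO2 was tested as an interaction of treatment and fraction. It was called lower for 8 members (4 snoRNA hosts and 4 microRNA hosts) and higher for 1, where 4.99% and 4.57% of all genes were called, and the members' median was −0.43 against −0.02. GAS5 (−1.12 ± 0.181, adjusted p = 0.000134, edgeR), SNHG3 (−1.003 ± 0.18, 0.000364), MIR924HG (−1.57 ± 0.297, 0.000614), SNHG6 (−1.08 ± 0.222, 0.00127) and MIR222HG (−1.55 ± 0.322, 0.00138) had the smallest p. The calls of MIR924HG and MIR222HG were kept in all 20 alternatives and those of GAS5 in all but 3, while SNHG3, close to the fold limit, lost its call in 12 of 20 and SNHG6 in 6 of 20, also without NaAsO2 insoluble replicate 3. Without that library the count was 6 lower and 0 higher, without Ctrl soluble replicate 2 it was 2 lower and 2 higher, and without NaAsO2 insoluble replicate 1 it was 8 lower and 5 higher. Fitted on the groups compared alone or scaled by library size alone it was 4 in all. Of the 148 other snoRNA hosts 24 were called lower and 5 higher (median −0.39), and of the 8 snoRNP core proteins 3 were called lower.

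RK-33 alone moved few of these transcripts. In the soluble fraction 1 of 55 members was called, MIR17HG, where 0.515% of all genes were called in either direction. MIR17HG was at 4.66, 3.13 and 4.82 CPM in Ctrl and 10.4, 9.72 and 7.45 CPM in RK-33 soluble libraries, a change of 1.14 ± 0.259 (adjusted p = 0.0103, edgeR) that fell to 0.95 and lost its call without Ctrl soluble replicate 2. In its insoluble libraries, at 6.82, 9.17 and 7.15 against 11, 13.6 and 13.2 CPM, the groups did not overlap, but the change of 0.70 did not pass (adjusted p = 0.0581). In the insoluble fraction no member was called (all genes 1.86%) by edgeR's quasi-likelihood or likelihood ratio test or by DESeq2, and 12 of 55 members (21.8%) had an unadjusted p under 0.05, against 26.6% of all genes. SNHG3, at 141, 116 and 107 against 77.4, 75.1 and 74.6 CPM, changed by −0.68 ± 0.127 (adjusted p = 0.000754), under the fold limit. The fraction difference changed with RK-33 for no member by any of these tools (all genes 0.436%), and 4 of 55 members (7.27%) had an unadjusted p under 0.05, against 13.96% of all genes.

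Combo against NaAsO2 asks what RK-33 given first changed in arsenite-treated cells. Every member called was higher in Combo, relative to the other genes of its library. With spike-in scaling and both fractions combined, the study reported less cytoplasmic RNA in Combo than in NaAsO2. In the soluble fraction 8 of 55 were called higher and 0 lower (all genes 2.41% and 0.0283%), and in the insoluble fraction 13 were higher and 0 lower (3.11% and 0.815%). The members' median log2 changes were 0.28 and 0.34, against −0.04 and 0.01 for all genes. The nuclear RNA MALAT1 was at 1315 to 2447 CPM in NaAsO2 and 4021 to 4540 CPM in Combo insoluble libraries. Of 3 nuclear RNA markers tested, 1 was called higher in Combo in the insoluble fraction and 0 in the soluble one. The part of nuclear RNA in the members' changes was not tested. SNHG12, the host of SNORA16A, SNORA44, SNORA61 and SNORD99 (chr1:28578538-28583132, minus strand), was at 21.8, 22.1 and 22.9 CPM in NaAsO2 and 66.5, 74 and 84.5 CPM in Combo soluble libraries, and at 14.2, 9.69 and 18.3 against 45, 42.1 and 50.5 CPM in the insoluble ones. Both fractions were well apart, with changes of 1.75 ± 0.166 (adjusted p = 2.61e-07, edgeR) and 1.72 ± 0.169 (6.36e-07). Its Combo levels also lay above those of Ctrl (31.6 to 37.6 CPM soluble, 23 to 29.6 insoluble) and RK-33 (33.8 to 43.9 and 28.1 to 31.3), a side by side reading that was not tested.

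SNHG5 was at 4.40, 4.09 and 2.75 CPM in NaAsO2 and 12.4, 14.2 and 24 CPM in Combo soluble libraries, and at 4.48, 2.04 and 5.22 against 15.9, 21.5 and 13 CPM in the insoluble ones. The groups did not overlap, and the changes were 2.17 ± 0.293 and 2.14 ± 0.287 (adjusted p = 5.09e-05 and 5.33e-05, edgeR). MIR17HG was at 3.05, 2.39 and 2.85 against 8.43, 8.56 and 14.7 CPM in the soluble and 4.91, 2.39 and 2.61 against 10.3, 11.6 and 8.68 CPM in the insoluble fraction, with changes of 1.93 ± 0.273 and 1.60 ± 0.259. Side by side and untested, its soluble levels were 8.43 to 14.7 CPM in Combo and 7.45 to 10.4 CPM in RK-33. MIR22HG was at 32.6, 33.6 and 28.6 against 58.5, 66.3 and 68.3 CPM soluble and at 13.7, 11.2 and 14.2 against 25.9, 25.1 and 30.7 CPM insoluble, with changes of 1.03 ± 0.157 and 1.07 ± 0.163 that lie close to the fold limit, and it lost its soluble call without NaAsO2 soluble replicate 3 and its insoluble call without NaAsO2 insoluble replicate 2 or Combo insoluble replicate 3. GAS5, at 34.1, 25 and 36.2 against 70.9, 68.6 and 61.8 CPM, rose by 1.08 ± 0.129 in the insoluble fraction and had 0.67 ± 0.127 in the soluble one, the first of which was 0.93 and not called without NaAsO2 insoluble replicate 2.

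In both fractions SNHG25 (1.70 soluble, 2.26 insoluble) and MIR137HG (2.01 and 2.09), low transcripts, were called higher too. MIR23AHG, the host of miR-23a, miR-27a and miR-24-2, was at 44.2, 42.2 and 36.4 CPM in NaAsO2 and 98.3, 117 and 120 CPM in Combo soluble libraries (1.45 ± 0.334), and lost the call without NaAsO2 soluble replicate 3. Its NaAsO2 insoluble libraries were at 18.9, 16.3 and 67.4 CPM, the highest being the library that stood apart, and its insoluble change was not called. SNHG1, at 45.3, 37.9 and 17 against 92.6, 99.3 and 53.9 CPM, rose by 1.28 ± 0.230 in the insoluble fraction, and was at 0.93 and not called without NaAsO2 insoluble replicate 3. Fitted on the 6 insoluble libraries compared alone, edgeR called 0 of 52 members, and 19 of 17330 genes in all. Leaving out replicate 3 of both groups in the fit over all groups (an alternative added after the data were seen) called 14 members higher and 0 lower. Between Combo and NaAsO2 the fraction difference changed for no member by edgeR's quasi-likelihood or likelihood ratio test or by DESeq2 (all genes 0.142%), and 6 of 55 members (10.9%) had an unadjusted p under 0.05, against 13.05% of all genes. Of the 148 other snoRNA hosts 4 were called higher in each fraction (all genes 2.41% soluble and 3.11% insoluble). In the soluble fraction 0 were lower and in the insoluble 1 (all genes 0.0283% and 0.815%).

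**Figure D4:**
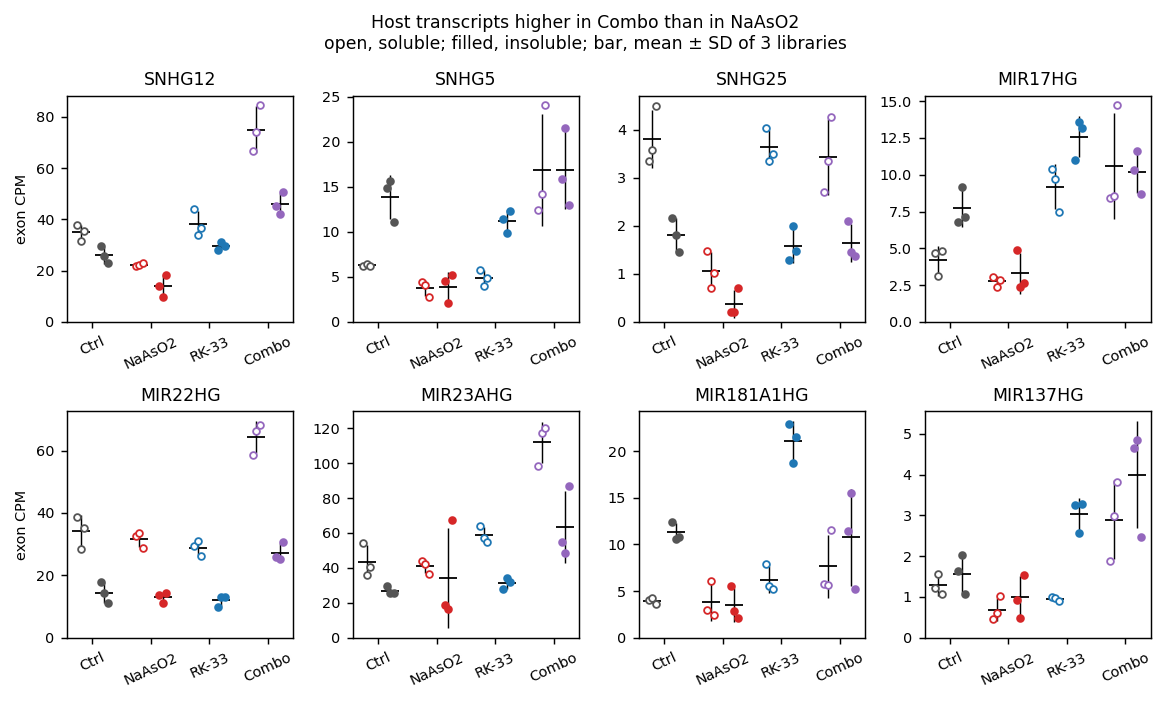
Exon CPM in every library of 8 hosts, by treatment, with open points for soluble and filled points for insoluble libraries and bars for the mean ± SD of 3 libraries. SNHG12, SNHG5, MIR17HG and MIR22HG are higher in Combo than in NaAsO2 in both fractions, with no overlap between these groups.

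Intron counts of the same genes were tested for 51 members (15 snoRNA hosts and 36 microRNA hosts), with 18 of the 86 at 0 in all libraries. By the study they may come from intron-derived transcripts, lariats or unspliced RNA, which the counts do not separate. Introns of other genes shared 98.8% of the intron bases of SNHG29, 65.4% of those of SNHG26 and 25% of those of GAS5. The share was 0 for SNHG6, SNHG12, SNHG16 and SNHG17. Hosts with a single merged exon, such as SNHG1, SNHG19 and MIR23AHG, have no intron row. Exons were merged over all annotated transcripts, so exon counts can hold sequence that some transcripts splice out. Of the 123 snoRNA rows within members, 69 overlapped exons of their host. SNHG12 had 4266 exon bases and only 255 intron bases. Exon and intron counts of these hosts therefore do not fully separate spliced RNA from introns. Members held 0.258% to 0.472% of intron counts, and the highest was MIR924HG, with a mean of 822 intron CPM against 14.7 exon CPM. Insoluble against soluble, 7 members were called higher and 14 lower in Ctrl (all genes 6.58% and 12.3%), 4 and 9 in NaAsO2 (5.18% and 5.92%), 9 and 17 in RK-33 (10.7% and 15.2%), and 4 and 13 in Combo (4.11% and 8.61%). These splits depend on the scaling: intron counts were 13.3% to 37.5% of a library's counts, and with the exon table's library sizes and TMM factors the counts became 16 and 3, 8 and 5, 22 and 5, and 8 and 9, while with library size alone they were 2 and 18, 2 and 15, 3 and 22, and 1 and 15. Directions below are therefore relative to the other introns.

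SNHG6 introns were at 68.7, 59.5 and 59.7 CPM in Ctrl soluble and 29.2, 30.3 and 29.2 CPM in Ctrl insoluble libraries, and at 27.7, 25.3 and 31.4 against 7.26, 9.61 and 8.14 CPM in NaAsO2. They were called lower in the insoluble fraction in each treatment, with differences of −1.08, −1.76, −1.37 and −1.68, of which the Ctrl and RK-33 calls were lost with the exon scaling (−0.40 and −0.51). SNHG16 introns differed by −1.65, −2.02, −1.65 and −2.04 and SNHG17 introns, in the host of the SNORA71 snoRNAs, by −1.19, −1.47, −1.19 and −1.59, also called in each treatment and lost with the exon scaling in Ctrl and RK-33. MIR924HG introns, at 608, 593 and 687 CPM in Ctrl soluble and 1348, 1377 and 1415 CPM in Ctrl insoluble libraries, were higher by 1.13 in Ctrl and 1.22 in RK-33, calls that were lost with library size alone (0.79 and 0.77).

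NaAsO2 against Ctrl, 5 members were called lower by introns in the soluble fraction and 0 higher (all genes 2.51% in either direction), and 8 lower and 2 higher in the insoluble one (13.9%), which became 9 lower and 26 lower with the exon scaling. The soluble count was 2 without Ctrl soluble replicate 2 or NaAsO2 soluble replicate 2, 3 without Ctrl soluble replicate 3 or NaAsO2 soluble replicate 1, and 4 without either other library. SNHG26 introns fell by 1.59 ± 0.171 in the soluble fraction (adjusted p = 4.63e-07, edgeR) and by 1.05 in the insoluble one, and SNHG6 introns by 1.16 ± 0.160 (3.08e-05) and 1.84 ± 0.181 (5.78e-08). GAS5 introns were called higher in the insoluble fraction, where its exons were lower, at 24.5, 29.7 and 26.5 CPM in Ctrl and 28.8, 22.8 and 123 CPM in NaAsO2, a call of 1.09 that rested on the library that stood apart (−0.04 without it, adjusted p = 0.908). Combo against NaAsO2, 4 members were called higher and 0 lower in the soluble fraction (6.26% in either direction) and 5 higher and 1 lower in the insoluble one (10.3%), or 10 and 16 higher with the exon scaling. SNHG12 introns, at 7.99, 4.22 and 6.46 CPM in NaAsO2 and 20.03, 22.8 and 18 CPM in Combo soluble libraries, rose by 1.73 ± 0.334 (adjusted p = 0.00048), and by 1.79 ± 0.363 in the insoluble fraction, close to its exon changes of 1.75 and 1.72. MIR17HG introns rose by 1.199 in the soluble fraction, and MIR181A1HG introns by 1.00 and 1.46.

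The ratio of intron to exon counts within a library was compared between the fractions of the same lysate, as log2 of CPM plus 0.5 in 12 lysates. It asks whether sequence outside all annotated exons went to the insoluble fraction more than a host's merged exons did. An exact permutation test over all sign flips of the 12 lysates, two-sided, was used, whose smallest p is 0.000488, or 0.00224 after Benjamini-Hochberg adjustment over 12857 genes. Of 35 members tested (13 snoRNA hosts and 22 microRNA hosts), 20 were called higher in the insoluble fraction and 1 lower, where 48.1% and 8.03% of all genes were called, and the members' median difference was 0.317 against 0.404, so their share lay near the background. MIR3667HG (1.51 ± 0.451, SD over 12 lysates) and SNHG10 (1.27 ± 0.523) were higher in 12 of 12 lysates, SNHG29 (0.97 ± 0.563) and SNHG6 (0.83 ± 0.491) in 11 of 12, and MIR22HG (0.47 ± 0.490) in 10 of 12. The member called lower was SNHG25 (−0.25 ± 0.208, lower in 11 of 12), a call that was lost with a pseudocount of 0.1 CPM (−0.097, adjusted p = 0.359, exact permutation test). MIR17HG (−0.28), SNHG16 (−0.09), SNHG17 (−0.08) and MIR222HG (0.04) were not called. GAS5 was called higher, at 0.70 ± 0.922 and 11 of 12 lysates, with 0.09, 0.09 and −0.04 in Ctrl, 1.05, 0.42 and 3.40 in NaAsO2, 0.40, 0.37 and 0.19 in RK-33, and 0.99, 0.80 and 0.66 in Combo, the highest again from the lysate of the library that stood apart.

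**Figure D5:**
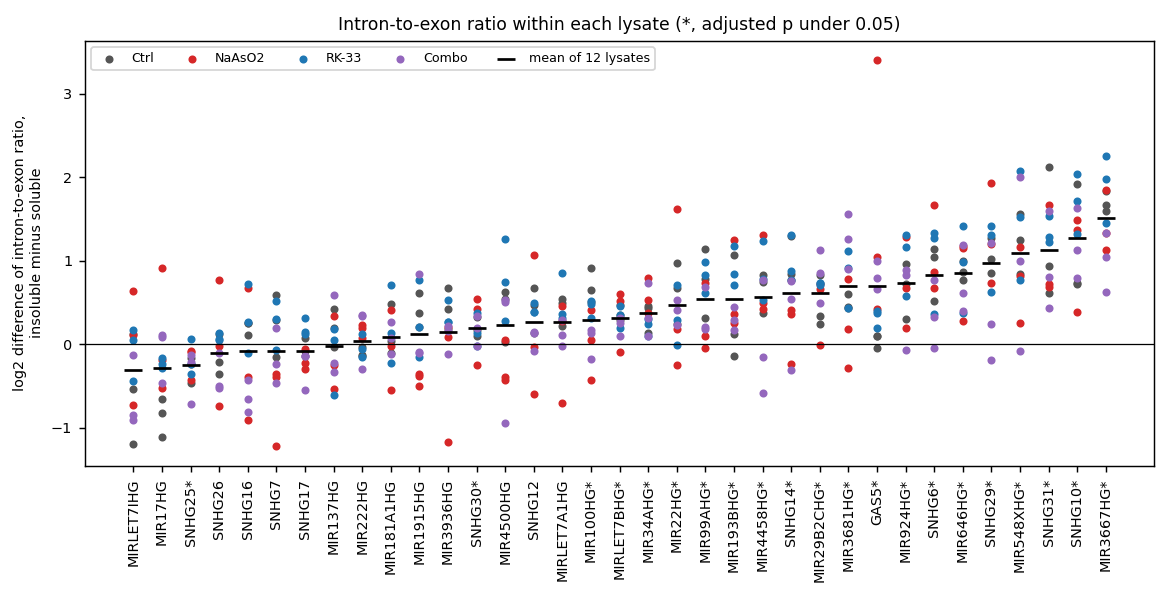
Log2 intron-to-exon ratio, insoluble minus soluble, for the 35 members tested, set side by side along the horizontal axis. Points are the 12 lysates, coloured by treatment, and the dash is their mean. An asterisk marks adjusted p under 0.05 in the exact permutation test. MIR3667HG and SNHG10 are above 0 in all lysates, and the highest point of GAS5 is NaAsO2 lysate 3.

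The snoRNAs and microRNAs themselves were mostly out of reach. RefSeq places 142 snoRNAs within the spans of 24 of the 29 snoRNA hosts, 84 of them in SNHG14, and the count table had 123 snoRNA rows within members, of which 97 were at 0 in all libraries and 4 passed the filter, and 108 microRNA rows, of which 65 were at 0 and 1 passed. RefSeq lists 11 snoRNAs within GAS5, which were not analysed here. SNORA73B, which lies within SNHG3 and is an H/ACA snoRNA whose box lies 3 bases from its end, had the highest counts and is shown with that box in capitals (chr1:28508559-28508762, plus strand, GRCh38.p14), followed by SNORA74D of SNHG4 (chr5:139276180-139276320, plus strand).
SNORA73B: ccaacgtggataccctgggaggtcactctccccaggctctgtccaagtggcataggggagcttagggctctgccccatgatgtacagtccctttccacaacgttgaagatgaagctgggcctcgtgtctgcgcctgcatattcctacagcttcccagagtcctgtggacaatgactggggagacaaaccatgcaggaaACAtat
SNORA74D: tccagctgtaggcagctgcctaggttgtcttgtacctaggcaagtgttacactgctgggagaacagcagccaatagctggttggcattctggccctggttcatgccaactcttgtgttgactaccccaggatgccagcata
SNORA73B was at 121, 114 and 111 CPM in Ctrl soluble and 156, 187 and 142 CPM in Ctrl insoluble libraries, whereas its host was called lower in the insoluble fraction. Its fraction difference was 0.49 in Ctrl, 0.87 in NaAsO2, 0.58 in RK-33 and 1.04 ± 0.318 in Combo, of which the last was called (adjusted p = 0.00869, edgeR). SNORA74D was at 10.3, 10.0 and 10.6 against 3.14, 3.43 and 2.03 CPM in Ctrl, and was called lower in the insoluble fraction in all 4 treatments (−1.85, −1.99, −1.99 and −2.31). SNORA74A of the same host, with a mean of 2.64 CPM, went the other way. Its differences in Ctrl, NaAsO2, RK-33 and Combo were 0.68, 1.315, 0.23 and 0.32, and only NaAsO2 was called. SNORA71B of SNHG17, with a mean of 1.94 CPM, had −0.70, −1.14, −0.15 and −1.58, called lower in NaAsO2 and Combo. The row of MIR221, the hairpin within MIR222HG, had a mean of 1.54 CPM, was higher in the insoluble fraction of Ctrl by 1.56 and fell by 2.10 with NaAsO2 in that fraction. The counts do not separate a mature small RNA from its precursor.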

How the data were processed

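The deposited exon and intron counts per gene were made by the authors with STAR 2.7.2b, SAMtools 1.2 and featureCounts of Subread on GRCh38.p13 with a GENCODE annotation, without strand and without fragments over more than 1 gene; introns needed an overlap of at least 25 bases. Libraries were strand-specific, depleted of ribosomal RNA and sequenced as read pairs. Genes whose row was broken over several lines (1 exon, 21 intron) were rejoined into whole rows. Counts were fitted with edgeR 4.0.16 in R 4.3.3 (TMM factors, mean of at least 1 CPM, quasi-likelihood test over all 24 libraries in 8 groups) with Benjamini-Hochberg adjustment over all genes; a call needed adjusted p under 0.05 and a log2 difference of at least 1 in size. The ratio test took genes with a mean of at least 1 exon CPM and 5 intron counts, with a pseudocount of 0.5 CPM. DESeq2 1.42.0, other scalings, filters, blocks and libraries left out were tried. Fits were tested on simulated data. Replicate numbers came from the labels, which do not name the lysate. Libraries of 1 treatment with the same number were taken as the fractions of 1 lysate, since the study compared the fractions as pairs. Correlations of the deviations of these pairs ran from −0.295 to 0.126, and the exact permutation test of the ratio rests on this matching.

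The members and lists were chosen with earlier results of these data known. Members with a mean of at least 5 CPM could be named, up to 5 in each direction per comparison by adjusted p, plus GAS5, SNHG1, SNHG3, MIR22HG and MIR17HG; introns of 15 hosts could be named. Precision is limited by 3 libraries per group and, for members near 1 CPM, by about 10 counts in a library.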

Additional observations from a re-analysis of the deposited data

Results flagged for a closer look

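Results flagged here are the members whose fraction difference (insoluble minus soluble, log2) differed between NaAsO2 and Ctrl by edgeR's interaction test, adjusted over all genes. MIR924HG (−1.57) and MIR222HG (−1.55) kept their calls in all 20 alternatives. GAS5 (−1.12) lost its call in 3 of 20, with values from −1.20 to −0.90. SNHG6 (−1.08) lost it in 6 and SNHG1 (−1.08) in 6, both also without NaAsO2 insoluble replicate 3. MIR4307HG (−1.81) lost it in 4, with values from −2.04 to −1.40. SNHG3 (−1.003) and MIR181A1HG (−1.58) lost it in 12 each. The one difference in the other direction, MIR1915HG (1.12), was not called without NaAsO2 insoluble replicate 3, the library that stood apart. MALAT1 was lower in all 3 NaAsO2 insoluble libraries than in the Ctrl insoluble ones, while the share of RN7SL1 was raised in replicate 3 alone (5.79%, against 0.426% and 0.798% in the others and 0.648% to 0.868% in Ctrl insoluble); the part of MALAT1 in these differences was not tested.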

How the results depend on the processing

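Counts of members called are given in all, both directions together. Of the alternatives for single members, 2251 kept direction and side of the threshold, 219 lost the call and 1 reversed: GAS5 introns, NaAsO2 against Ctrl in the insoluble fraction, at −0.04258 (adjusted p = 0.908, edgeR) without NaAsO2 insoluble replicate 3, the lowest of its values with 1 library left out, the highest being 1.468. Without the fold limit the exon counts were 34 for the Combo fractions, 5 for NaAsO2 soluble and 3 for RK-33 insoluble, and the intron counts were 33, 22 and 29 for the Ctrl, NaAsO2 and Combo fractions, 8 and 19 for NaAsO2 soluble and insoluble, and 12 and 23 for Combo against NaAsO2. With library size alone they were 5 for NaAsO2 soluble and 4 for the change of the fraction difference with NaAsO2; on the groups compared alone 5 and 4, with 2 for RK-33 soluble and 0 for Combo against NaAsO2 insoluble. With the exon scaling, intron counts were 9 and 26 for NaAsO2 and 10 and 16 for Combo against NaAsO2. Without replicate 3 of NaAsO2 and Combo insoluble, an alternative added after seeing the data, the Combo change of the fraction difference had 1. The causes were not tested.

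Leaving out 1 library at a time, exon counts ranged over 19 to 25 (Ctrl fractions), 21 to 25 (NaAsO2), 25 to 28 (RK-33) and 15 to 21 (Combo), 3 to 5 and 16 to 21 for NaAsO2 soluble and insoluble, 0 to 1 and 0 to 0 for RK-33, 5 to 8 and 10 to 14 for Combo against NaAsO2, and 4 to 13, 0 to 0 and 0 to 1 for the changes of the fraction difference with NaAsO2, RK-33 and Combo. Intron counts ranged over 18 to 22, 11 to 15, 24 to 26 and 14 to 21 for the fractions, 2 to 4 and 8 to 11 for NaAsO2, and 3 to 6 and 5 to 10 for Combo against NaAsO2, and ratio calls over 19 to 24.

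With the lysate as a replicate block, fraction counts were 23, 23, 26 and 21 and the NaAsO2 change of the fraction difference 8. With the replicate number as a block, NaAsO2 had 3 and 18, RK-33 1 and 0, and Combo against NaAsO2 8 and 13; every same-numbered pair correlated above 0.1 only for Combo and NaAsO2 insoluble (0.49, 0.427 and 0.694), where the block left 13 higher and 0 lower.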
